A study of Mus musculus with 10 samples.

Results

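Sites of RNA polymerase II (Pol II) occupancy that lie just downstream of annotated genes were followed in mouse Th1 cells before and after restimulation through the T cell receptor. A member was a Pol II peak summit that the deposited promoter table of the same library did not hold, that lay outside the span of every gene in the 6 promoter tables, and that fell within 5000 bp beyond a gene's 3' end on the gene's own strand. The choice used summit positions and gene models and no difference between conditions. Across the 6 libraries 5443 of 117973 summits (4.61%) met it. Joining summits within 500 bp of each other gave 2481 sites, which lay behind 1518 of the 10419 listed genes (14.6%).

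The cells were primary CD4+ T cells of the Balb/c DO11.10 strain, a line with a transgenic T cell receptor, primed under Th1 conditions with anti-CD3, anti-CD28, anti-IL-4 and IL-12. They were expanded with an IL2 analogue and then kept a day without it. The NR group was not restimulated, and the 30min and 2h groups were restimulated for those times on plates coated with anti-CD3 (5 µg/ml), with anti-CD28 (2.5 µg/ml) added in solution. Each group had 2 libraries, made by chromatin immunoprecipitation with the 8WG16 antibody after fixation in 1% formaldehyde for 10 min. The labels do not say whether the 2 libraries of a group came from separate cultures, so the spread between them may be technical.

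Pol II does not stop at the end of a messenger RNA. It transcribes past the polyadenylation signal, the nascent RNA is cut and polyadenylated behind it, and the polymerase slows and is released further downstream after an exonuclease degrades the RNA still attached to it. Pol II occupancy therefore often extends beyond the annotated end of a strongly transcribed gene, and chromatin immunoprecipitation shows where polymerase sits without showing the direction in which it moves.

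Promoters of T cell genes carried the peaks that the label implies. Between 10 and 11 of the 11 Th1 and CD4 T markers had a promoter peak in each library, whereas no library had one at any of 5 B cell markers, 6 myeloid markers or Foxp3. Of other lineages, CD8 T markers had 0 or 1 of 2 (none at Cd8a), Th2 markers 1 to 3 of 3, and NK and erythroid markers 0 or 1 of 3 each. The libraries listed 15330 to 23299 summits each, and their lowest local background pileup, a relative measure of depth, ran from 0.659 in NR replicate 1 to 3.61 in 2h replicate 2, with 1.57 in 30min replicate 1. Each peak has 1 summit, so a promoter peak that is wide enough to run past a gene's end takes the place of a 3' site, and both readings are given below.

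The genome sequence under the sites was not used here, so sequences are shown for the promoters that the sites bear on, taken from RefSeq windows on build GRCm38.p6 that run from 250 bases before a start to 50 bases after it. The first is the promoter of Sco2, a copper chaperone of mitochondrial respiration, because the site behind Odf3b falls on it. The capitals mark the 92 bases between the outermost summits of the 6 libraries (89373961 to 89374052), which lie before the Sco2 start on the minus strand.
Sco2, chr15:89373842-89374141, minus strand: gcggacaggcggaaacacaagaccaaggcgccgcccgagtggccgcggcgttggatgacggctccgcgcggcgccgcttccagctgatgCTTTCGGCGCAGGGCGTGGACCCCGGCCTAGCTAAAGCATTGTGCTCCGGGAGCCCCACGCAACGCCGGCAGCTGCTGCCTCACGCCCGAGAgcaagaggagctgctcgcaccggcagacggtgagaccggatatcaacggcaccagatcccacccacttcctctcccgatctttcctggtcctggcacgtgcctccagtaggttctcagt
The next 3 are promoters of genes whose 3' site was seen in both NR libraries and in neither 2h library, with the motif TATAAA in capitals. They were picked because they hold this motif, and windows of other named genes with a lost site are not shown. Counted from the start, the motif begins at position -32 in Vim, -27 in H3f3b and -23 in Snhg5, the region where TATA boxes lie.
Vim, chr2:13574061-13574360, plus strand: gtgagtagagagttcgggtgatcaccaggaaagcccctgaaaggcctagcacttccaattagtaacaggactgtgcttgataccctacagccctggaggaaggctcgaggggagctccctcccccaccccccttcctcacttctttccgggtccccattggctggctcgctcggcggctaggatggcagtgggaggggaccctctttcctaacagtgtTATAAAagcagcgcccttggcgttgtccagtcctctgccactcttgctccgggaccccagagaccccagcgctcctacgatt
H3f3b, chr11:116024455-116024754, minus strand: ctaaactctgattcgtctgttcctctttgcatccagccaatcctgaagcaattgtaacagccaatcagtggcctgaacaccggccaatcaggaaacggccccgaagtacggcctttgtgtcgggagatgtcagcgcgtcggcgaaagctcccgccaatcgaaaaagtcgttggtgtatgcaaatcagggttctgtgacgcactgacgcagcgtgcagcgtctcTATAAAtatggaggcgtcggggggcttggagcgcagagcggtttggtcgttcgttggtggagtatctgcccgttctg
Snhg5, chr9:88522848-88523147, minus strand: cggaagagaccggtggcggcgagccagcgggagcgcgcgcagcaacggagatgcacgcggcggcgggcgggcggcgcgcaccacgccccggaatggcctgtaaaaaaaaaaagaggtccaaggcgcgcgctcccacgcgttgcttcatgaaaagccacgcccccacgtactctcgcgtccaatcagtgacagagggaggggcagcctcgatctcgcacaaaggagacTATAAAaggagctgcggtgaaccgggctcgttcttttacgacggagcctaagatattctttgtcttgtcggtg
The last 2 belong to genes whose 3' site appeared after restimulation and hold an NF-kB type motif (GGGAA, 3 bases of any kind, CC) on either strand, in capitals, at position -42 in Tnfrsf9 and 2 in Adcy4. They too were picked for holding the motif. Rbx1, another gene with a gained site, holds it at position -228 and is not shown. The share of windows with this motif was similar for gains and losses, as given below. The Tnfrsf9 window lies inside the gene span used here (150920155 to 150946102), so it belongs to a RefSeq start within that span.
Tnfrsf9, chr4:150927749-150928048, plus strand: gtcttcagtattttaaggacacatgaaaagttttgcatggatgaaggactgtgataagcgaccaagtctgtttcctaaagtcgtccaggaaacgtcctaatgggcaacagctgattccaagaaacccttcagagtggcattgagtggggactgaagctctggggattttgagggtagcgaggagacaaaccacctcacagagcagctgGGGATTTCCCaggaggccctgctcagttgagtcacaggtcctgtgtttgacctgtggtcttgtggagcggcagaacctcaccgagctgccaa
Adcy4, chr14:55784023-55784322, minus strand: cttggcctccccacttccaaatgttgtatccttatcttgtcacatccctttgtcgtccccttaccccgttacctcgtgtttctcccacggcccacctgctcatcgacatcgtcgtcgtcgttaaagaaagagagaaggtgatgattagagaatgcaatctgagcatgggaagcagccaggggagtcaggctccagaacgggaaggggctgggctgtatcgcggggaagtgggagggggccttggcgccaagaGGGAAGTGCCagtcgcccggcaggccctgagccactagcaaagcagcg

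Both motifs were searched on both strands of all RefSeq windows, and they do not overlap each other in the sequences shown. TATAAA stood in 13.6% of the 32851 windows, in 6.4% of the 10082 windows of listed genes and in 8.07% of the 1487 windows of genes with a 3' site. Among genes that lost a 3' site it stood in 10 of 34 windows (29.4%) at 30min and in 14 of 59 (23.7%) at 2h. Restricted to the sense strand and a beginning 20 to 40 bases before the start, the share was 0.903% of the windows of listed genes, 1.82% for genes with a site, 14.7% for losses at 30min and 13.6% for losses at 2h. The NF-kB type motif stood in 5.78% of all windows, in 7.01% of those of listed genes, in 8.88% for genes with a site, in 10.3% for gains and 11.8% for losses at 30min, and in 11.4% for gains and 10.2% for losses at 2h. An AP-1 type motif (TGA, any base, TCA), not marked above, was searched in the same way. It stood in 7.81% of all windows, in 4.84% of those of listed genes and in 5.85% for genes with a site. At 30min it stood in 4.41% for gains and 11.8% for losses, and at 2h in 4.03% and 3.39%. These counts describe letters in the windows, 1186 of the 1518 genes with a site could be matched to a window, and no test was made.

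Summits were densest shortly after the gene end. Around the 3' ends of 7045 genes of at least 10 kb, the bin from 500 to 1000 bp past the end held more non-promoter summits per Mb than any other bin within 5 kb on either side, in each of the 6 libraries. In that bin the density was 8.35 and 10.2 summits per Mb in the NR libraries, 12.7 and 34.3 at 30min, and 23.8 and 35.2 at 2h. In the last 500 bp inside the gene it was 4.54 and 5.68 in NR, 6.25 and 13.6 at 30min, and 11.9 and 17.6 at 2h. The rise in NR was small, since single bins further out reached 11.1 summits per Mb in NR replicate 2.

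**Figure D1:**
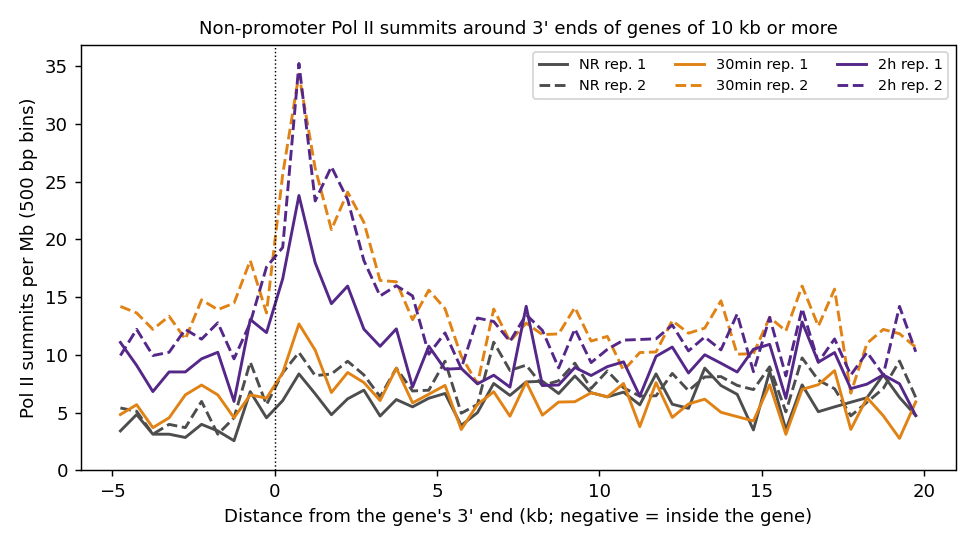
Non-promoter Pol II summits per Mb (y axis) in 500 bp bins against distance from the gene's 3' end in kb (x axis; positions inside other listed genes are left out beyond the end), for 7045 genes of at least 10 kb, 1 line per library. At 500 to 1000 bp past the end the lines stand at 12.7 to 35.2 in the restimulated libraries and at 8.35 and 10.2 in the NR libraries, where single bins further out are higher, up to 11.1 in NR replicate 2.

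Of the 5443 member summits, 776 (14.3%) lay within 500 bp of the gene end, 1122 (20.6%) at 500 to 1000 bp, 1437 (26.4%) at 1000 to 2000 bp and 528 (9.7%) at 4000 to 5000 bp. Summit counts were similar on both sides of the window's edge. Over all libraries together there were 244 summits at 4500 to 5000 bp and 238 just outside at 5000 to 5500 bp. Their median −log10 q values, 8.07 and 8.08, pool libraries whose scores are not on a common scale. The median distance of members past the end was 1586 and 1540 bp in NR, 1449.5 and 1515.5 bp at 30min, and 1442 and 1451 bp at 2h. The 2h libraries and the NR libraries did not overlap, but the difference of 3 groups did not pass an exact permutation test over libraries (p = 0.133, where the smallest possible is 0.0667).

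Density past gene ends was compared with 2 backgrounds as a ratio within each library, although the ratio still varied with list length. The first was intergenic sequence 5 to 50 kb past an end. The genes were listed because a promoter peak in any of these 6 libraries was assigned to them. An excess of summits near their ends is therefore not independent of how they were listed. Within 5 kb of an end the density was 2.11 and 2.23 times as high in the NR libraries, 3.21 and 3.49 times at 30min, and 3.59 and 3.54 times at 2h. All 6 libraries showed the excess, with a mean log2 ratio of 1.56 ± 0.352 (SD, n = 6; exact sign-flip permutation test, two-sided p = 0.0312, the smallest that 6 libraries can give). The NR ratios lay below those of every restimulated library. Genes listed through restimulated libraries alone may add to that difference, which was not tested. A test of the 3 groups, added after the ratios were seen, gave p = 0.0667 by exact permutation, which is again the smallest possible, for a rise of 0.72 in log2 from NR to 2h. With lists cut to equal length the mean log2 ratio was 1.28. The rise from NR to 2h was then 0.43 (exact permutation test of the 3 groups, p = 0.333).

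The second background was the 5' side of the same kind of gene. Between 1 and 5 kb past the end there were 0.976 and 0.848 times as many summits per Mb as 1 to 5 kb before a start in the NR libraries. The ratio was 1.33 and 1.42 at 30min and 1.27 and 1.42 at 2h. Thus 4 of 6 libraries had more summits on the 3' side, and the mean log2 ratio of 0.25 ± 0.311 (SD, n = 6) did not pass the exact sign-flip permutation test (p = 0.125). When every RefSeq gene was masked as well, a step chosen after seeing the data, the ratio was 1.22 and 1.01 in NR, 1.81 and 1.77 at 30min, and 1.72 and 1.84 at 2h, and the mean log2 ratio was 0.61 (exact sign-flip permutation test, p = 0.0312).

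**Figure D2:**
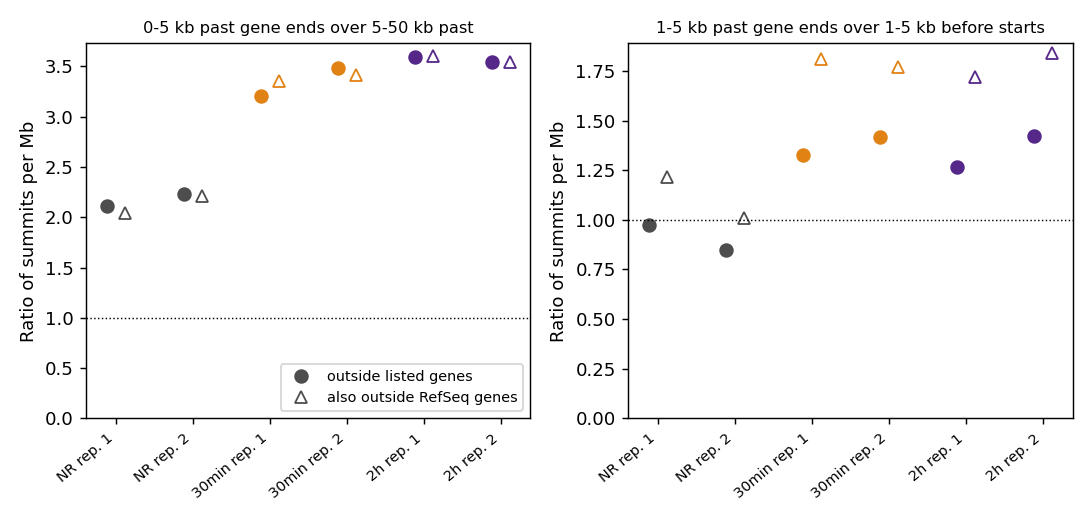
Ratio of Pol II summits per Mb (y axis) in each library (x axis), within 5 kb past gene ends over 5 to 50 kb past (left) and 1 to 5 kb past ends over 1 to 5 kb before starts (right). Circles are outside listed genes, triangles also outside RefSeq genes, and the dotted line marks equal density; the NR circles at 2.11 and 2.23 (left) and at 0.976 and 0.848 (right) lie below the circles of the 4 restimulated libraries.

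As a share of a library's summits, members made up 2.6% (95% Wilson interval 2.39 to 2.83) and 3.42% (3.16 to 3.69) in NR, 4.28% (3.97 to 4.61) and 5.89% (5.59 to 6.2) at 30min, and 5.23% (4.93 to 5.55) and 5.73% (5.42 to 6.04) at 2h. The intervals cover counting error only. The NR shares were the lowest, and the exact permutation test of the 3 groups gave p = 0.2, where 0.0667 is the smallest possible, so it could not pass 0.05. The rise from NR to 2h fell from 2.47 to 0.946 percentage points when the lists were cut to equal length.

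Most sites were seen in few libraries. A summit was present in 1 library at 1243 sites, in 2 at 517, in 3 at 320, in 4 at 144, in 5 at 106 and in all 6 at 151 (6.09%). The sites of all 6 libraries ranked highest, with a median within-list percentile of 56.1 against 12.96 for sites of 1 library. They also lay further out, at a median of 1904 bp past the end against 1180.5 to 1638 bp for the other classes. Of the 2481 sites, 1736 (70%) were outside every RefSeq gene, 248 (10%) lay within the RefSeq span of their own gene, which then extends past the end used here, and 497 (20%) lay in another RefSeq gene. More than 1 gene end lay within reach of 301 sites (12.1%), so the gene that names such a site is uncertain. Sites named below behind Adcy4, Atf4, Rpl12, Cd6, Lat and Lfng are among them.

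Several of the strongest persistent sites sat on small RNA genes rather than behind the protein gene that named them. A small RNA gene lay within 500 bp of 19 sites in all (0.766%), among them 7 of the 151 sites of all 6 libraries (4.64%), 2 of the 106 sites of 5 libraries, none of the sites of 2 to 4 libraries, and 10 of the 1243 sites of 1 library. The site nearest Tmem107, a protein of the ciliary transition zone, lay 8 bp from Snord118, which encodes the U8 small nucleolar RNA needed to process ribosomal RNA. Its −log10 q was 289 and 265 in NR, 466 and 399 at 30min, and 495 and 360 at 2h.

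The site 3976.5 bp past Pecr, a peroxisomal fatty acid enzyme, covered the small nuclear RNA gene Gm25939 inside a long noncoding RNA. Its −log10 q was 363 and 354 in NR, 469 and 502 at 30min, and 562 and 461 at 2h, and its median percentile of 99.9 was the highest of the named sites. Another, 2538 bp past Trappc6b, a vesicle tethering subunit, covered the small nuclear RNA gene Gm22973, with 50.7 and 120 in NR, 123 and 302 at 30min, and 121 and 227 at 2h. These scores rank summits within a library's own list and are not compared between libraries. Transfer RNA genes lay at further sites: n-TIaat4 under the site 818.5 bp past Borcs6 in all 6 libraries, n-TRcct3 178 bp from the site past Ict1 in 5, and n-TTagt5 104 bp from the site past Per1 in 5; these 3 were named after their values were seen.

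Other persistent sites lay near a RefSeq start, and whether the promoter tables hold those genes was not checked. Within 1000 bp of a RefSeq start lay 41 sites (1.65%), including 12 of the 151 sites of all 6 libraries (7.95%). An example was the site 3470.5 bp past Odf3b, inside the protein-coding gene Tymp and centred 115 bp from the Sco2 start whose promoter is printed above. Its summits in the 6 libraries fell between 3397 and 3488 bp past Odf3b, and its −log10 q was 32.3 and 71.8 in NR, 30.2 and 184 at 30min, and 101.4 and 164 at 2h. The site therefore counts among the members by its position, and for such sites the named gene is only the nearest listed gene end.

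The remaining named sites of all 6 libraries had no RefSeq start or small RNA gene nearby. Hspa8, the constitutive Hsc70 chaperone, had a site 1665 bp past its end with −log10 q of 17.9 and 22.8 in NR, 56.6 and 229 at 30min, and 128 and 144 at 2h. Within their lists these ranked at percentiles of 75.1 and 40.8 in NR, 91.4 and 89.6 at 30min, and 93.3 and 81.4 at 2h. The others lay behind Vipr1, a receptor for vasoactive intestinal peptide (2285 bp), Anp32e, a histone H2A.Z chaperone (3930.5 bp), Adamtsl4 (2093.5 bp), Ttc41 (3083 bp) and the histone gene Hist2h3b (4609.5 bp), with median percentiles of 90.4 to 98.98. The Ttc41 site lay in that gene's own RefSeq span and the Adamtsl4 site in the noncoding RNA gene Gm52627.

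A site counted as gained when both libraries of the later group had its summit and neither library of the earlier group did, and as lost in the opposite case. At 30min 71 of 2481 sites (2.86%) were gained against NR, beside 1.53% of summit sites of all classes, and 44 (1.77%) were lost, beside 1.13%. At 2h 291 (11.7%) were gained, beside 6.05% of all sites, and 69 (2.78%) were lost, beside 1.88%. From 30min to 2h 79 (3.18%) were gained, beside 2.09%, and 14 (0.564%) were lost, beside 0.574%. By class, 9.07% of gene-body sites, 5.75% of distal sites and 2.86% of promoter sites were gained at 2h against NR. With 2 libraries against 2 the smallest permutation p is 0.333, so single sites were not tested, and the comparisons that share a group are not independent.

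Counting cover instead of an own summit raised the gains and lowered the losses in both comparisons with NR. A site was covered where any summit of the library lay within 500 bp or a promoter peak of the library ran over it. By cover 158 of the 2481 sites (6.37%) were gained and 13 (0.524%) lost at 30min, beside 3.12% and 0.428% of summit sites of all classes. At 2h 412 (16.6%) were gained and 18 (0.726%) lost, beside 8.91% and 0.856%. From 30min to 2h 85 (3.43%) were gained and 24 (0.967%) lost, beside 2.18% and 0.6%. None of the 71 and 291 sites gained against NR lay under a promoter peak in NR, whereas 33 of the 44 sites lost at 30min (75%) and 53 of the 69 lost at 2h (76.8%) lay under a promoter peak in at least 1 later library. From 30min to 2h this held for 2 of the 14 lost sites (14.3%). The counts also depend on single libraries, since leaving one out asks for a summit in 1 library where the group otherwise needs 2: gains at 30min were 959 when 30min replicate 1 was dropped and 260 when 30min replicate 2 was, and gains at 2h were 844 without 2h replicate 1 and 605 without 2h replicate 2. With lists of equal length 130 sites were gained and 59 lost at 2h against NR.

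**Figure D3:**
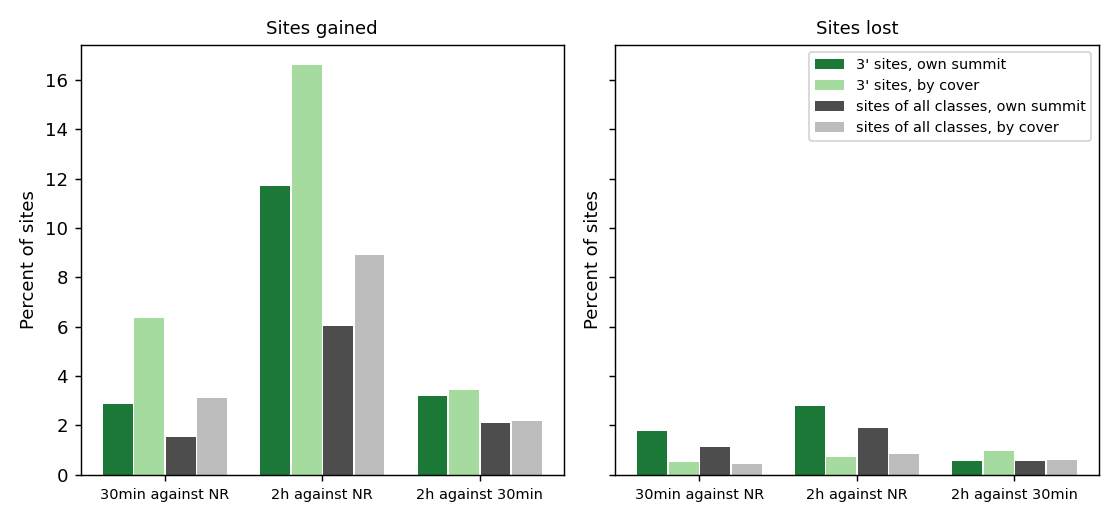
Percent of sites (y axis) gained (left) and lost (right) in each comparison (x axis), for 3' sites and for summit sites of all classes, by own summit and by cover. At 2h against NR 11.7% of 3' sites and 6.05% of all sites were gained by own summit, and the 2.78% of 3' sites lost by own summit exceeded the share lost by cover in 3' sites.

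Genes of gained and of lost sites mostly had a promoter peak before restimulation. Both NR libraries had one at 62 of the 69 genes with a gain at 30min (89.9%) and 251 of the 276 with a gain at 2h (90.9%), and at 42 of the 44 genes with a loss at 30min (95.5%) and 62 of the 68 with a loss at 2h (91.2%). By the stricter count of all 6 libraries, 1246 of the 1518 genes with a site (82.1%) had a promoter peak. So did 6164 of the 8901 listed genes with none (69.3%). The share with a peak in both NR libraries was not counted for those sets. Genes with a gain were short, with median lengths of 7963 and 7733 bp, near the 7581.5 bp of all genes with a site and below the 20656 bp of listed genes with none.

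Nfkbiz, which encodes the nuclear NF-kB regulator IkB-zeta, had no summit at its 3' site in either NR library. The site lay 1393.5 bp past its end at chr16:55809901-55810233, outside RefSeq genes, with −log10 q of 28.5 and 119 at 30min and 40.6 and 60.2 at 2h. All 4 restimulated libraries had it and both NR libraries lacked it, also by cover. Tnfrsf9, the co-stimulatory receptor 4-1BB, had its site at chr4:150946305-150946548, 348 bp past its end, with 8.71 and 46.2 at 30min and 34.1 and 76.2 at 2h, and none in NR. The same pattern held behind Tagap1, a GTPase-activating protein of activated T cells, at 435 bp, with 33.4 and 41.8 at 30min and 57.6 and 35.3 at 2h.

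Another site gained at 30min lay 210.5 bp past Adcy4, an adenylyl cyclase. Its −log10 q was 41.0 and 131 at 30min and 66.6 and 106 at 2h, with none in NR, and a second gene end lay within reach of it. Insig1, a sterol-sensing brake on lipid synthesis, had scores of 26.6 and 102 at 30min and 10.5 and 17.1 at 2h, at a site inside the noncoding RNA gene Gm35223. Another 3 genes gained a site at 30min that stayed in both 2h libraries: Slc38a2, an amino acid transporter (335 bp past the end), Srsf7, a splicing factor (344.5 bp), and Ptma, prothymosin alpha (509.5 bp). In these 3 the 30min scores ranged from 6.82 to 70.4 over both replicates, whose scores are not on a common scale.

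At 2h the site behind Il2, the T cell growth factor gene, appeared. It lay 752.5 bp past the end at chr3:37119945-37119982, with −log10 q of 66.3 and 22.7 in the 2h libraries and no summit and no cover in the 4 others. Cd69, an early activation antigen, had a site 732 bp past its end with 12.3 in 30min replicate 1, none in 30min replicate 2, where a promoter peak covered it, and 19.1 and 73.1 at 2h. Ran, the nuclear transport GTPase, had 57.3 in 30min replicate 2 and 20.2 and 42.3 at 2h. Atp5g3, a subunit of ATP synthase, had 31.3 in that library and 22.3 and 29.2 at 2h. The site counted as gained behind Rbx1, a cullin ligase subunit, was covered by nearby summits in both NR libraries.

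Genes with a site in both 2h libraries and in no 30min library included Pabpn1, the nuclear poly(A) binding protein (1436.5 bp past the end; 9.63 and 17.9 at 2h), Ptger2, a prostaglandin E2 receptor (2353 bp; 9.04 and 14.5), and Rps10, a ribosomal protein (1714 bp; 13.8 and 29.2). None of the 3 had a summit or cover in NR or at 30min. Fkbp1a and Ctla2a also met the rule, but their sites lay under a promoter peak in at least 1 30min library.

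In the comparisons with NR, most losses by own summit lay under a promoter peak of a later library. Whether that peak was assigned to the site's own gene or to a neighbour was not checked. Vim, encoding vimentin, had a site 1040.5 bp past its end with 53.8 and 108 in NR and no own summit in the 4 other libraries, all 4 of which had a promoter peak over it. The same held for Atf4, a stress response transcription factor (20.0 and 69.3 in NR), Rpl12, a ribosomal protein (21.0 and 69.7), and Eef1a1, the translation elongation factor (27.4 and 56.3). H3f3b, a histone H3.3 gene, kept its site in 30min replicate 1 (36.8 and 117 in NR, 46.9 at 30min) and had a promoter peak over it in 30min replicate 2 and both 2h libraries. Gimap4, a lymphocyte GTPase, and Snhg5, a host of small nucleolar RNAs, showed the same arrangement, with 26.2 and 114 in NR and 68.0 in 30min replicate 1 for Gimap4, and 35.8 and 91.5 in NR and 42.3 for Snhg5. By cover, none of these 7 sites was lost.

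Promoter peak length is described for these genes without a test, since a promoter peak that runs over a site removes its own summit and so enters the definition of most losses. At 2h its median log2 change was 0.57 for the 68 genes with a loss at 2h (51 positive) and 0.21 for the 270 tested genes with a gain at 2h (191 positive), beside −0.03 for all 9908 genes (4672 positive). At 30min it was 0.43 for the 43 tested genes with a loss at 30min and 0.27 for the 67 with a gain, beside −0.04 for all genes. Genes with a loss had median lengths of 4590 bp for losses at 30min and 4936.5 bp for losses at 2h.

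At a few genes one position was lost and another gained. Ucp2, a mitochondrial carrier, had a site 1922.5 bp past its end with 42.9 and 70.7 in NR and no summit afterwards. A second site 2972 bp past the end had none in NR, 106 in 30min replicate 1, and 259 and 262 at 2h. In 30min replicate 2 a promoter peak covered both positions, and in the other restimulated libraries the first position had no cover. At Lfng, a glycosyltransferase that modifies Notch, the summit stood 2304 to 2333 bp past the end in the NR and 30min libraries, with 22.4, 53.2, 34.6 and 147, and 1497 to 1508 bp past it at 2h, with 80.3 and 164. NR replicate 1 held both positions. More than 1 gene end lay within reach of each, so their assignment to Lfng is uncertain.

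Midn, which encodes midnolin, showed the opposite move. The summit lay 198 to 287 bp past the end in NR replicate 2 and both 30min libraries (74.6, 29.8 and 195), and 1134 to 1290 bp past it at 2h (32.8 and 97.1) and in NR replicate 1 (12.01). Over the whole set 4 genes had both a gained and a lost site at 2h against NR (Fkbp1a, Ift57, Rpl37 and Ucp2), none did at 30min against NR, and 2 did from 30min to 2h (Lfng and Midn).

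**Figure D4:**
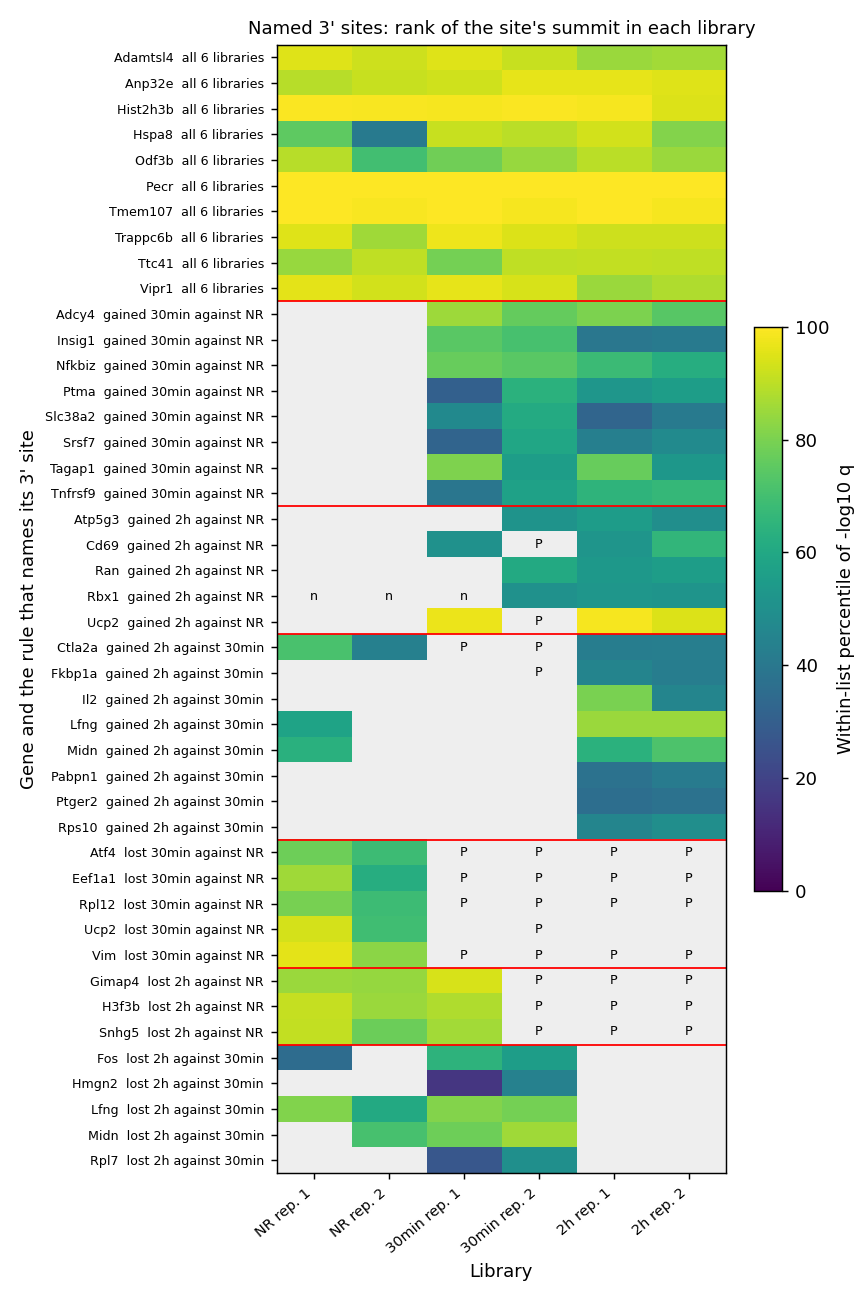
Within-list percentile of the −log10 q (colour) of named 3' sites (rows, by the rule that named them) in the 6 libraries (columns). Grey marks no own summit, P a promoter peak over the site and n a nearby summit; the lost Vim row carries P in the 4 restimulated libraries, the lost Ucp2 row only in 30min replicate 2, and the gained Nfkbiz row is plain grey in NR, whereas the gained Rbx1 row carries n there.

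Sites behind immediate early genes, the first wave of transcription after a stimulus, are considered first. Of 33 listed immediate early genes 20 (60.6%) had a site, beside 14.6% of all listed genes, with 46 sites in total, none of which had its own summit in all 6 libraries. By cover 11 of the 46 (23.9%) were present in all 6, beside 307 of 2481 (12.4%) for all 3' sites. Fos had a site 383 bp past its end with 5.54 in NR replicate 1, none in NR replicate 2, 19.1 and 41.3 at 30min, and neither summit nor cover at 2h. Nr4a2 and Fosb, also early transcription factors, had sites in 30min replicate 2 alone, and Fosb had 12.1 at 116 bp past its end there.

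Tnfaip3, which encodes the NF-kB inhibitor A20, had a site at 1163 bp with 12.2 in 30min replicate 2 and 12.9 and 20.6 at 2h. Dusp5, an ERK phosphatase, had 5 sites, of which the one at 2163 bp had 5.29 in 30min replicate 2 and 5.19 and 20.4 at 2h, and none had a summit in NR. The sites behind Myc (27.8 and 24.0 in NR), Gadd45b (17.3 and 18.95) and Btg1 (5.20 and 3.64) had a summit in the NR libraries alone, and a promoter peak covered them in the 4 restimulated libraries. Dusp1 and Irf4 lost a site at 2h in the same way, under promoter peaks. By own summit 4 immediate early sites (8.7%) were gained and 5 (10.9%) lost at 2h, beside 11.7% and 2.78% of all 3' sites. By cover 11 (23.9%) were gained and none lost, beside 16.6% and 0.726%.

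Cytokine and chemokine genes had sites behind 16 of 21 listed members (76.2%), beside 14.6% of all listed genes, with 30 sites. There were 4 and 5 present in the NR libraries, 10 and 9 at 30min and 11 and 11 at 2h, beside 488 and 587, 627 and 1340, and 976 and 1231 for all 3' sites. The NR counts were the lowest in both. Tnfsf14, which encodes the ligand LIGHT, had 4.16 in 30min replicate 2 and 10.5 and 7.62 at 2h at 766 bp. Csf1, a macrophage growth factor, had 2.73 and 14.8 at 30min alone at one position and 4.12 in 30min replicate 1 with 10.5 and 27.8 at 2h at another. Osm, the gene of oncostatin M, held a site at 631 bp in all 6 libraries (13.1 and 28.8, 11.4 and 58.8, 13.001 and 28.9).

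At Ifng, the signature Th1 cytokine, the only own summit was in NR replicate 2 (56.2 at 1436 bp), while promoter peaks covered the position in the 5 other libraries. Il10 had a summit at 970.5 bp in NR alone (20.4 and 10.3) and a promoter peak over it in the 4 restimulated libraries. By cover 10 cytokine sites (33.3%) were gained at 2h against NR and none was lost, beside 16.6% and 0.726% of all 3' sites.

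T cell receptor and other pan T cell genes had sites behind 26 of 35 listed members (74.3%), beside 14.6% of all listed genes. The sites behind Cd3e, a T cell receptor signalling chain, and Il2rb, the IL-2 receptor beta chain, were present throughout. Cd3e had 4.19 and 15.1 in NR, 11.8 and 76.1 at 30min, and 15.7 and 57.9 at 2h at 391.5 bp. Il2rb had 14.7 and 32.4, 29.3 and 115, and 34.0 and 85.4 at 4642.5 bp. Cd6, a co-receptor, lacked a summit in NR replicate 1 and had 3.02 in the other NR library, 9.58 and 69.7 at 30min, and 9.88 and 42.4 at 2h.

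Lat, the adaptor that receptor signalling phosphorylates, gained a site at 30min (4.65 and 26.7, then 11.6 and 10.1 at 2h). Lcp2, another adaptor, and Il7r, the IL-7 receptor, gained sites at 2h that 30min replicate 2 also held. At 2h 8 sites of this list (14.5%) were gained and 2 (3.64%) lost, Cd2 and Ctla4, beside 11.7% and 2.78% of all 3' sites. By cover 13 (23.6%) were gained and none lost, beside 16.6% and 0.726%.

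Other lists differed in how many members had a site, beside 14.6% of all listed genes. Some genes stand in more than 1 list, and gene length was not accounted for. Ribosomal protein genes had one behind 51 of 65 (78.5%), with 119 sites. At 2h 6 of these (5.04%) were gained and 9 (7.56%) lost by own summit, beside 11.7% and 2.78% of all 3' sites, and 21 (17.6%) were gained and none lost by cover, beside 16.6% and 0.726%. Housekeeping and translation genes had one behind 21 of 28 (75%), with 40 sites. At 2h none of these was gained and 4 (10%) were lost by own summit, whereas by cover 3 (7.5%) were gained and 1 (2.5%) lost. The shares of all 3' sites are the ones just given for ribosomal protein genes. NF-kB pathway genes had one behind 11 of 19 (57.9%), with 2 and 3 sites present in NR, 7 and 10 at 30min and 10 and 11 at 2h; the counts over all 3' sites given above were also lowest in NR. Icam1, Nfkbiz and Traf1 gained one at 30min, 3 of the 23 sites of this list, beside 71 of all 2481 3' sites. Heat shock genes had a site behind 6 of 10 (60%), Th1 programme genes behind 10 of 16 (62.5%), quiescence genes behind 8 of 16 (50%) and glycolytic genes behind 7 of 19 (36.8%). Replication-dependent histone genes, whose RNAs end in a stem-loop without polyadenylation, had one behind 2 of 37 (5.41%). Members named here beside the rule were chosen after their values were seen.

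Genes whose products carry out 3' end processing and termination had a site themselves in 6 of 42 cases (14.3%), the share of all listed genes being 14.6%. Rprd2, a Pol II C-terminal domain binding protein, held a site 1091 bp past its end in all 6 libraries, with 5.30 and 14.1 in NR, 3.62 and 54.8 at 30min, and 12.1 and 26.7 at 2h. Supt4a, a subunit of the elongation factor DSIF, had 18.7 and 54.0 in NR and 50.7 in 30min replicate 1 at 1631 bp, and promoter peaks over it in the other 3 libraries. Pcf11, a cleavage and termination factor, had 3 sites inside the noncoding RNA gene Gm26944, with scores of 3.77 to 5.33. All 3 had a summit in 30min replicate 2, and each 2h library shared a different single site of them. No summit was in NR or in 30min replicate 1. Cstf2t, a cleavage stimulation factor, had 6.57 in 30min replicate 2 and 2.09 and 5.85 at 2h. None of the 41 tested genes of this list passed the promoter length test in any comparison.

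Most genes with a site had 1 (903 of 1518) or 2 (380), and 6 had 6. The rule names 5 of these: Cd2bp2, Cd82, H2-Q7, Srgn and Tbc1d10c. At Cd82, a tetraspanin, 6 sites lay 261 to 4785.5 bp past the end, all in restimulated libraries, and 5 of them inside the noncoding RNA gene Gm13807. At Srgn, the proteoglycan serglycin, the 6 sites lay 682 to 4676 bp past the end, none in NR, with scores of 3.85 to 36.7. In 30min replicate 2 each of the 6 lay under a promoter peak. At Tbc1d10c, a Rab GTPase-activating protein, 5 of the 6 sites were in 30min replicate 2 alone. H2-Q7 belongs to a family of closely similar class I genes and its values are uncertain for that reason.

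The promoter peaks of genes with a 3' site were then tested by length. The measure is not independent of the sites, because a promoter peak over a position leaves no 3' summit there, so the counts below are descriptions of the genes with a site. Length is the sum of bp of the promoter peaks assigned to a gene, tested on log2(bp + 100) with limma over 9908 genes. At 30min 10 of the 1475 tested genes with a site had a longer promoter peak and none a shorter one, beside 0.232% and 0.0101% of all genes (23 and 1). At 2h 13 were longer and 1 shorter, beside 0.373% and 0.0606% (37 and 6). From 30min to 2h none of 9908 genes passed, beside 0% in both directions, and 513 had an unadjusted p under 0.05. The median log2 change of genes with a site was 0.12 at 30min and 0.08 at 2h, beside −0.04 and −0.03 over all genes tested.

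Cd40lg, the ligand by which T cells help B cells, had promoter peaks of 681 and 581 bp in NR, 8323 and 17964 bp at 30min, and 15507 and 17083 bp at 2h. The log2 change at 30min was 3.92 ± 0.25 (SE; limma adjusted p = 0.00905), and its 3' site, seen in 30min replicate 1, was under a promoter peak in the 3 other restimulated libraries. Ccl3, a chemokine gene, had no assigned peak in NR, 1283 and 3769 bp at 30min and 3952 and 3843 bp at 2h (limma adjusted p = 0.0107 and 0.00725). Nfkbia, the gene of the inhibitor IkB-alpha, went from 1118 and 1559 bp to 7257 and 8643 bp at 30min and 8530 and 9615 bp at 2h (log2 change 2.34 ± 0.23 at 30min; limma adjusted p = 0.0422).

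Lilrb4a, an inhibitory receptor, had 562 and 616 bp in NR, 3326 and 7949 bp at 30min and 7480 and 7889 bp at 2h (limma adjusted p = 0.0129 at 30min). Hcst, the signalling adaptor DAP10, had 1198 and 1311 bp in NR, 13429 and 15087 bp at 30min and 13547 and 13078 bp at 2h (limma adjusted p = 0.0306 at 30min). Fes, a tyrosine kinase gene, had 1417 and 2313 bp in NR and 20073 and 25751 bp at 30min (limma adjusted p = 0.0452). Such peaks are assigned to 1 gene and may run over its neighbours. Rps27, a ribosomal protein whose 3' site was lost in both comparisons with NR, had 714 and 933 bp in NR, 4444 and 5861 bp at 30min and 5911 and 5815 bp at 2h (limma adjusted p = 0.0216 at 30min).

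At 2h Cblb, a ubiquitin ligase that limits T cell activation, had 7913 and 10164 bp against 863 and 1614 bp in NR (log2 change 2.34 ± 0.2; limma adjusted p = 0.0208). Dnaaf2, an assembly factor of ciliary dynein, had no assigned peak in NR and 1889 and 1972 bp at 2h (limma adjusted p = 0.0312). Rps3a1 was the gene that was shorter, with 771 and 1422 bp in NR, 1148 and 2204 bp at 30min and no peak assigned to it at 2h (limma adjusted p = 0.0173). Slc2a4rg-ps, a pseudogene, was longer at 30min, with 1049 and 3026 bp against no assigned peak in NR (limma adjusted p = 0.0422). A promoter without an assigned peak may still lie under a peak assigned to a neighbouring symbol, which was not checked. With replicate number as a block, 6 genes with a site passed at 30min and 9 at 2h, of which 5 and 7 were among the 10 and 14. Ccl3, Cd40lg, Hcst, Lilrb4a and Rps27 passed at both times with the block, and Cblb and Rps3a1 at 2h. Fes, Nfkbia and Slc2a4rg-ps at 30min and Dnaaf2 at 2h did not. The calls depend on single libraries. Of genes with a site, none passed at 30min or at 2h without NR replicate 1, 3 and 4 without NR replicate 2, none and 1 without 2h replicate 1, and 1 and 1 without 2h replicate 2, whereas leaving out 30min replicate 1 gave 25 and 49 and leaving out 30min replicate 2 gave 37 and 67.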

How the data were processed

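Total Pol II was profiled by ChIP-seq in 6 libraries, 2 per group; the H3K36me3 and input samples were not analysed here. Per the submitters' processing notes, BWA 0.7.13, Picard 1.119 and MACS2 2.1.0 were used with build mm10. The files deposited by the authors give, per peak, the −log10 p and −log10 q, the fold enrichment (a ratio), the pileup signal at the summit, and positions in bp. Read counts are not given, so depth is known only relatively, from the lowest background pileup, and scores are used only to rank summits within a list. No read-based interval was computed.

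Gene spans were the longest per symbol over the 6 promoter tables. Summits within 500 bp were joined into sites. Presence, gain and loss were counted per site. Library values were compared by exact two-sided permutation tests with Python 3.11.15 and scipy 1.17.1. Promoter peak length, log2(bp + 100), centred per library and filtered on presence in at least 2 libraries, was tested with limma 3.58.1 in R 4.3.3 across all genes and groups, at a Benjamini-Hochberg adjusted p of 0.05. The scripts were tested on simulated data. Libraries of the same replicate number were correlated for promoter length (0.442, 0.269 and 0.408), so blocked counts are given. The labels state no pairing, and the cause of these correlations was not tested. Adjusted p-values printed for single genes come from the fit without the block. Since no source says that replicates came from separate cultures, p-values reflect spread between libraries that may be technical.

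Named genes were those of the 10 highest ranked sites of all 6 libraries, of up to 8 sites gained and 5 lost per comparison by their lowest percentile, the 5 genes with most sites, sites of the immediate early, cytokine, T cell receptor and 3' processing lists, and up to 8 genes with a site per comparison that passed the promoter length test; gene-model and small RNA symbols were counted, not named. The members and gene lists were chosen with earlier results of these data known. The alternatives tried were equal list lengths, joining distance, window, cover, q thresholds, pseudocount, centring, filters, the replicate block and leaving out each library. Results for 2 genes are not reported here.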

Additional observations from a re-analysis of the deposited data

How the results depend on the processing

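Of 71 values under settings other than leaving out a library, 55 kept their direction and stayed on their side of the threshold or within 1.5 times the count. With lists of equal length, gains were 130 at 2h against NR and 38 from 30min to 2h, and losses from 30min to 2h were 32. Joining within 1000 bp gave 9 losses from 30min to 2h, and a window of 2000 bp gave 51 gains. Presence by cover gave 158 gains and 13 losses at 30min, 18 losses at 2h and 24 from 30min to 2h. Masking RefSeq genes, chosen after seeing the data, gave a log2 3' to 5' ratio of 0.61 (exact permutation p = 0.0312). Genes with a site called by promoter length numbered 16, 41 and 4 in the 3 comparisons with a pseudocount of 1000 bp, 5 at 30min with promoter peaks of −log10 q of at least 3, and 6 and 9 at 30min and 2h with the replicate block. The cause of these shifts was not tested.

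Leaving out each library in turn kept 39 of 78 values. Gains ran from 78 to 959 at 30min, 306 to 844 at 2h and 132 to 402 from 30min to 2h, and losses from 84 to 154, 93 to 195 and 33 to 507. A group reduced to 1 library needs only 1 summit, and every one of these counts was above that with 6 libraries. The log2 density ratio to 5 to 50 kb ran from 1.51 to 1.66, each with an exact permutation p of 0.0625, the smallest that 5 libraries give. Promoter length calls ran from 0 to 37, 0 to 67 and 0 to 33, where the lone library was assumed to vary like the others. For presence of sites, the same-number correlations were 0.0742, 0.0482 and 0.182, and no pairing was assumed. The depth of each library is known only relatively, and its part in the gains was not tested.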
